A study of Mus musculus with 6 samples.

Results

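The genes described here carry out or signal homologous recombination and Fanconi repair of DNA: 32 listed genes of recombination, the Fanconi pathway and the damage checkpoint, of which 31 had a probe set carrying that gene symbol alone, out of 19938 genes measured in all. Xrcc2 was not analysed here. Where a gene had several probe sets, the one of highest mean stood for it, and only Bard1 and Nbn had more than 1 probe set. The cells were CD8+ T cells from spleens of female C57BL/6 mice carrying the Pmel-1 T cell receptor transgene, which directs T cells against the melanocyte protein gp100; every group carried this transgene. Naive cells (2 arrays) were isolated fresh and sorted for CD8 and Thy1.1, without culture. IL-2 primed cells (2 arrays) and IL-12 primed cells (2 arrays) were exposed to gp100 for 4 days and kept with IL-2 or IL-12 for 6 days per the sample labels (the series text gives 6 days for both), and for these cultured cells the labels mention no sorting. No group had antigen or culture without a cytokine. In comparisons with naive cells, antigen, cytokine, culture and sorting therefore cannot be told apart, and "with IL-2" or "with IL-12" names the primed group only. The study set IL-12 priming against IL-2 priming in search of genes or pathways needed to act against tumours in the animal. Whether the 2 arrays within a group derive from different mice or cultures is not in the labels, so p-values measure only the spread between these arrays, which may be technical.

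Homologous recombination repairs broken or stalled DNA by copying the sister chromatid, and so works mainly in S and G2 phase. BRCA1 with BARD1 promotes the trimming of the broken ends, BRCA2 with PALB2 acts in the search for a matching strand, and the Fanconi core complex attaches ubiquitin to FANCD2 and FANCI at crosslinks between DNA strands. ATM and ATR are the kinases that sense breaks and stalled forks, and CHEK2 and CHEK1 are the kinases they activate. T cells divide very fast after antigen, and many genes of this machinery are known as targets of the E2F factors that switch on at S phase entry.

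Values are log2 RMA values, differences are log2 differences with the standard error (SE) of a limma fit over all 6 arrays, and a gene is said to have risen or fallen where its Benjamini-Hochberg adjusted p over 11147 tested genes was below 0.05. Levels of different genes are not compared, since each probe set has its own affinity. All 31 genes passed the filter on low values, which asked for at least 2 arrays above 6.83, and each had at least 4 arrays above it. In 12 of them, Brca1, Brip1, Palb2, Brca2, Rad51b, Rad51c, Rad54l, Rad54b, Exo1, Fancb, Fancd2 and Chek1, both naive arrays lay below that value. No detection call was used here, so the naive level of these 12 is not shown to be above background, and their fold values and the order of those folds are not exact. Over these genes the gap between the 2 arrays of a group had a median of 0.16 in naive, 0.115 in IL-2 and 0.155 in IL-12 cells, and the widest was that of Chek2 in naive cells, at 0.545. The proliferation marker gene Mki67 read 8.36 and 8.25 on the naive arrays, 12.41 and 12.24 on the IL-2 arrays and 12.23 and 12.28 on the IL-12 arrays. The T cell gene Cd3e read between 12.76 and 13.31 on all arrays, and Cd8a between 12.12 and 12.66. The group means of Cd8a were 12.63 in naive, 12.31 in IL-2 and 12.14 in IL-12 cells.

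Most of these repair genes were higher in primed than in naive cells, while the kinase genes Atm and Atr were lower. Of 31 genes, 23 rose and 2 fell in IL-2 against naive cells, where 25.8% of all tested genes rose and 19.9% fell. In IL-12 against naive cells 26 rose and 2 fell, against 31.2% and 26.7% of all tested genes. The median log2 difference was 1.29 in IL-2 and 1.30 in IL-12 cells, against 0.0138 and 0.0411 over all tested genes. Over all tested genes 2873 rose and 2222 fell with IL-2 and 3482 rose and 2972 fell with IL-12. These splits move with the scaling of the arrays: centring each array on its median gave 3282 and 1561 with IL-2 and 4049 and 2278 with IL-12 (all-gene medians 0.115 and 0.165), and centring on the median of the tested genes 2439 and 3006, and 3134 and 3415 (medians -0.085 and -0.031). At least 2-fold rises were seen in 16 genes in IL-2 and 17 in IL-12 cells, where 7.11% and 10.5% of all tested genes rose that far. The 23 genes that rose with IL-2 also rose with IL-12, a pair of comparisons that share the naive arrays. Among them are all 12 genes whose naive arrays both lay below the filter value. These 12 passed the filter only through their primed arrays, where they are high, and they enter the counts and medians above. All of them except Palb2 are among the 2-fold rises. Outside these 12, only Bard1, Blm, Fanca, Fanci and Chek2 were at least 2-fold higher with IL-2, and these and Fancm with IL-12. The shares over all tested genes are therefore given beside these counts without a test. Fancf, Fancl and Rad50 passed the test with IL-12 and not with IL-2, and the direct comparison of their IL-12 with their IL-2 values did not pass the limma test (adjusted p = 0.0786, 0.527 and 0.146), and Rad51d, Fancc and Fance passed the test in no comparison. In bulk RNA, more cells that express a gene and more of its RNA per cell cannot be told apart.

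**Figure D1:**
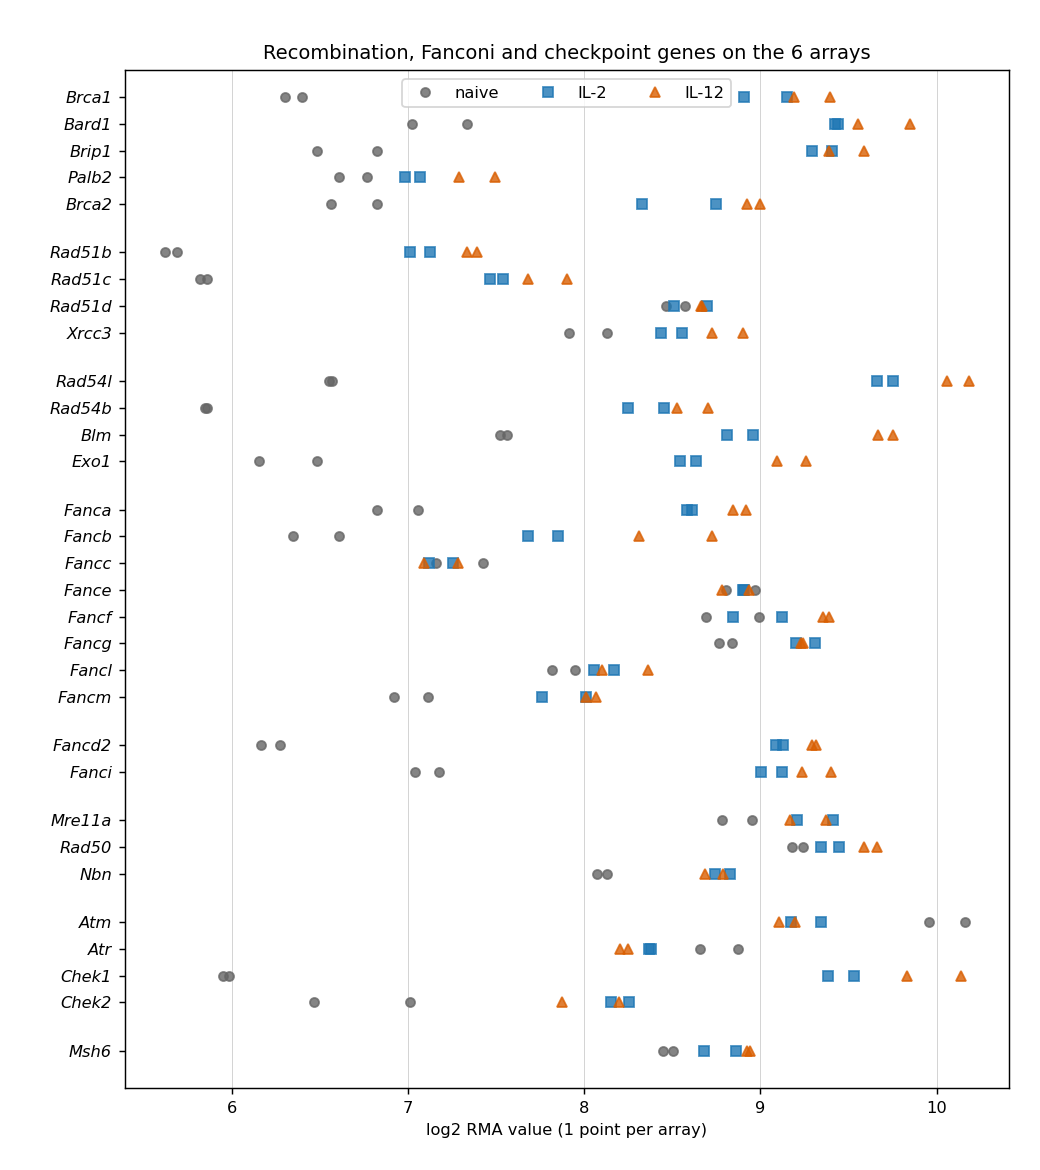
Log2 RMA values (horizontal axis) of the 31 genes in naive, IL-2 primed and IL-12 primed cells, 1 point per array and 2 arrays per group, ordered by role from the BRCA complexes down to Msh6. Naive points lie far to the left for Chek1, Rad54l and Fancd2, to the right for Atm and Atr, and among the others for Fance and Fancc.

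The promoters show which of these genes carry the sequence read by E2F factors close to their start. RefSeq promoter windows of build GRCm38.p6, from 250 bases before to 50 after the annotated start, matched 25 of the 31 genes. The E2F sequence was searched on both strands in the spellings TTTCCCGC, TTTGGCGC, TTTCGCGC and TTTGCCGC, and no match to it overlapped a match to CCAAT or TTTGAA in these genes. It was present in 6 of 25 genes (24.0%), namely Bard1, Brca2, Rad51c, Fancg, Chek2 and Msh6, and in 2.60% of 27025 genes with a window. CCAAT, the box bound by NF-Y, was present on either strand in 17 of 25 genes (68.0%) and in 41.1% of all genes. TTTGAA, the cell cycle homology region of genes of late cycle, was present in 2 of 25 (8.0%), Bard1 and Rad51b, and in 20.2% of all genes. These are letter matches, and no binding was measured here. The 250 bases before the start are shown for the 4 genes whose E2F match lies wholly upstream, with the match in capitals (GCGGGAAA is TTTCCCGC on the other strand), and for Chek1, whose fitted difference from naive was the largest and whose naive values lay below the filter value, which has no match to these letters in its window.
Bard1, chr1:71102973-71103222, minus strand: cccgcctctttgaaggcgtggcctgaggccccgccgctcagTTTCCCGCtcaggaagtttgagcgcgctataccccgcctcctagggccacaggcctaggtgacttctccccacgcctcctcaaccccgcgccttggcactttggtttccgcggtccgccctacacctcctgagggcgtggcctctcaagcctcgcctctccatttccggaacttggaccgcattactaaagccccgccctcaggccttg
Brca2, chr5:150522371-150522620, plus strand: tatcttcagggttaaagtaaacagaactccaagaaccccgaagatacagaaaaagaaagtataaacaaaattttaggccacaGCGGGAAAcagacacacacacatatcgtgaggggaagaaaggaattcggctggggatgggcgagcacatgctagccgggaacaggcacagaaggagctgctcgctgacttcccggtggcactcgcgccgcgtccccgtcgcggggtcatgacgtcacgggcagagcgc
Chek2, chr5:110839733-110839982, plus strand: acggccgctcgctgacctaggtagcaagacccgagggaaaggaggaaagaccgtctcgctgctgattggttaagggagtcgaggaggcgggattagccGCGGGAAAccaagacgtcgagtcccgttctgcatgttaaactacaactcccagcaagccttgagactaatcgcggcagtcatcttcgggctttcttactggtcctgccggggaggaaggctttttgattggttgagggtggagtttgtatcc
Fancg, chr4:43010302-43010551, minus strand: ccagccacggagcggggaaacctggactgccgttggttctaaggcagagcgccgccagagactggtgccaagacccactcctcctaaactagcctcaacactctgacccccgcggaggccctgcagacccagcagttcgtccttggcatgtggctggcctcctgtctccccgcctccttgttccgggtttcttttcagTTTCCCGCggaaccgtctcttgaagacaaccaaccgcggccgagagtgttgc
Chek1, chr9:36726659-36726908, minus strand: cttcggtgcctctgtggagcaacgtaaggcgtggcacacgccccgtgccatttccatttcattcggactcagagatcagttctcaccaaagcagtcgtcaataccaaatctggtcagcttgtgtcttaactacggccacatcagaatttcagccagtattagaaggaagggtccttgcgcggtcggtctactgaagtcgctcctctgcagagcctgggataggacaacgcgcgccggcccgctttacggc
The match begins 209 bases before the start in Bard1, 168 in Brca2, 152 in Chek2 and 52 in Fancg. In IL-2 against naive cells Bard1 was 4.77-fold, Brca2 3.58-fold and Chek2 2.76-fold higher, and Fancg 1.37-fold.

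All 5 genes of the BRCA1 and BRCA2 complexes rose in both primed groups, 4 of them more than 3-fold. Brca1 (probe set 10391461), whose product is the ubiquitin ligase that commits breaks to recombination, read 6.40 and 6.30 in naive, 9.15 and 8.91 in IL-2 and 9.19 and 9.40 in IL-12 cells. Its log2 difference from naive was 2.68 ± 0.13 with IL-2 (SE, n = 2 arrays in each group, adjusted p = 6.14e-07 by limma) and 2.94 ± 0.13 (limma adjusted p = 2.64e-07) with IL-12. Every primed array lay more than 2 log2 units above every naive array. Bard1 (probe set 10355327), the partner that stabilises BRCA1, rose by 2.25 ± 0.14 with IL-2 and by 2.52 ± 0.14 with IL-12. Its other probe sets gave the same order of naive and primed arrays, reading 6.00 and 6.41 in naive against 8.25 and 8.28 in IL-2 cells, and 6.60 and 6.79 against 9.17 and 9.25. Brip1, the helicase that binds BRCA1, read 6.49 and 6.83 in naive, 9.41 and 9.30 in IL-2 and 9.39 and 9.59 in IL-12 cells, a 6.48-fold and a 7.13-fold difference. Brca2, a tumour suppressor gene of this route, read 6.57 and 6.83, then 8.75 and 8.33, then 8.9228 and 9.0004 in the same order, 3.58-fold and 4.81-fold above naive.
Palb2, which tethers BRCA2 to BRCA1, moved least in this group. It read 6.77 and 6.61 in naive, 7.07 and 6.98 in IL-2 and 7.288 and 7.496 in IL-12 cells, 1.26-fold and 1.63-fold above naive (limma adjusted p = 0.0433 and 0.000895). The groups do not overlap, but the IL-2 call was lost without naive replicate 2 (0.118), either IL-2 array (0.212 without replicate 1, 0.115 without replicate 2) or either IL-12 array (0.0529 each), and under no filter (0.0592), a fit of these groups alone (0.0529), the replicate block (0.0534) or centring on the median of the tested genes (0.138).

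Among the genes of the BCDX2 and CX3 complexes, which act in strand exchange, Rad51b and Rad51c rose strongly, Xrcc3 rose less and Rad51d did not pass the test. Rad51c (probe set 10389627) read 5.86 and 5.82 in naive, 7.46 and 7.54 in IL-2 and 7.68 and 7.90 in IL-12 cells, a log2 difference of 1.66 ± 0.11 with IL-2 and 1.95 ± 0.11 with IL-12 (limma adjusted p = 6.31e-06 and 1.61e-06). Rad51b read 5.69 and 5.62, then 7.01 and 7.12, then 7.33 and 7.39, 2.66-fold and 3.27-fold above naive. In both genes the naive arrays stood well apart from the primed arrays. Xrcc3, whose product binds that of Rad51c, was 1.39-fold higher with IL-2 (limma adjusted p = 0.0113) and 1.73-fold higher with IL-12 (0.000544), and its IL-2 call was lost without IL-2 replicate 2 (0.0908). Rad51d read 8.47 and 8.58 in naive, 8.51 and 8.70 in IL-2 and 8.67 and 8.66 in IL-12 cells, so the IL-2 arrays overlapped the naive ones. Its difference with IL-2 was 0.08 (95% interval -0.17 to 0.33; limma adjusted p = 0.575) and with IL-12 0.15 (-0.10 to 0.40; 0.285).

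The genes of the strand exchange motors, the BLM helicase and the EXO1 nuclease all rose more than 2-fold in both primed groups. Rad54l (probe set 10515257), a motor protein of strand exchange, read 6.55 and 6.57 in naive, 9.66 and 9.75 in IL-2 and 10.06 and 10.18 in IL-12 cells. Its log2 difference from naive was 3.14 ± 0.10 with IL-2 and 3.56 ± 0.10 with IL-12, or 8.85-fold and 11.8-fold (limma adjusted p = 7.9e-08 and 4.08e-08). The 3 groups were separate, in the order naive, IL-2, IL-12. Its relative Rad54b was 5.65-fold and 6.78-fold higher than in naive cells. Exo1, the nuclease that lengthens single-stranded ends, read 6.16 and 6.49 in naive, 8.54 and 8.64 in IL-2 and 9.10 and 9.26 in IL-12 cells, 4.82-fold and 7.24-fold above naive. Blm, the helicase mutated in Bloom syndrome that takes apart recombination intermediates, read 7.56 and 7.52, then 8.96 and 8.81, then 9.67 and 9.75, 2.53-fold and 4.50-fold above naive.

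The Fanconi pathway was uneven. FANCD2 and FANCI, the pair that the core complex marks with ubiquitin, had genes that rose strongly. Fancd2 (probe set 10540738) read 6.16 and 6.27 in naive, 9.13 and 9.09 in IL-2 and 9.29 and 9.32 in IL-12 cells, a log2 difference of 2.89 ± 0.10 and 3.08 ± 0.10 (limma adjusted p = 1.07e-07 and 5.62e-08). Fanci was 3.88-fold higher with IL-2 and 4.63-fold higher with IL-12. In the 8 genes of the core complex and its DNA-binding helicase the median difference was 0.34 with IL-2 and 0.48 with IL-12, against 2.42 and 2.65 in the pair; no test compared these groups of genes. Within the core, Fanca, Fancb and Fancm rose clearly and the other members little or not at all. Fanca read 6.82 and 7.06 in naive, 8.61 and 8.58 in IL-2 and 8.84 and 8.92 in IL-12 cells, 3.15-fold and 3.84-fold above naive. Fancb, an X-linked gene of the catalytic module, read 6.35 and 6.61, then 7.85 and 7.68, then 8.31 and 8.73, 2.44-fold and 4.12-fold above naive. Fancm, which recognises branched DNA, was 1.83-fold and 2.03-fold higher.
Fancl, the ubiquitin ligase subunit itself, read 7.82 and 7.95 in naive, 8.05 and 8.17 in IL-2 and 8.10 and 8.36 in IL-12 cells. Its 1.27-fold difference with IL-12 passed the test (limma adjusted p = 0.0356), a call lost without naive replicate 1 (0.115), IL-12 replicate 2 (0.256) or either IL-2 array (0.0613 each) and with centring on the median of the tested genes (0.0663), and its 1.17-fold difference with IL-2 did not pass (0.158). Fancg, a scaffold subunit, was 1.37-fold higher with IL-2 and 1.35-fold higher with IL-12 (limma adjusted p = 0.00622 and 0.00564), the former lost without IL-2 replicate 2 (0.067). Fancf, an adaptor, was 1.44-fold higher with IL-12 (limma adjusted p = 0.00991), which was lost when IL-12 replicate 2 was left out (0.0531), and 1.10-fold higher with IL-2 (0.447). Fance, which holds FANCD2 to the core, read 8.80 and 8.97 in naive, 8.90 and 8.91 in IL-2 and 8.94 and 8.78 in IL-12 cells, and all groups overlapped. Its difference was 0.02 with IL-2 (95% interval -0.24 to 0.27) and -0.03 with IL-12 (-0.28 to 0.23). Fancc, its neighbour in the core, gave -0.11 (-0.40 to 0.19) and -0.10 (-0.40 to 0.19).

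The MRE11, RAD50 and NBN proteins form the complex that first holds a broken end and activates ATM, and their genes moved by less than 2-fold. Nbn (probe set 10503431) read 8.08 and 8.13 in naive, 8.83 and 8.74 in IL-2 and 8.68 and 8.79 in IL-12 cells, 1.60-fold and 1.55-fold above naive (limma adjusted p = 0.000803 and 0.000777). Its other probe set read 7.35 and 7.35, then 7.57 and 7.68, then 7.76 and 7.81, also lowest in naive cells. Mre11a was 1.36-fold and 1.32-fold higher (limma adjusted p = 0.0192 and 0.0221). The Mre11a call with IL-2 was lost without naive replicate 2 (0.0622) or IL-2 replicate 1 (0.157), and that with IL-12 without naive replicate 2 (0.0776) or IL-12 replicate 2 (0.157); centring on the median of the tested genes gave 0.0571 and 0.0557. Rad50 was 1.14-fold higher with IL-2, which did not pass the test (limma adjusted p = 0.167), and 1.33-fold higher with IL-12 (0.00721), which was lost when IL-12 replicate 2 was left out (0.0573).

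The 4 checkpoint kinase genes moved in opposite directions, the sensors down and the effectors up. Atm (probe set 10593526), the kinase of double-strand breaks, read 10.16 and 9.96 in naive, 9.34 and 9.17 in IL-2 and 9.11 and 9.20 in IL-12 cells. It fell by 0.80 on the log2 scale with IL-2 and by 0.91 with IL-12 (SE 0.12 in both; limma adjusted p = 0.000732 and 0.000215), and every primed array lay below both naive arrays. Atr (probe set 10587892), the kinase of stalled forks, read 8.87 and 8.66, then 8.38 and 8.37, then 8.20 and 8.25, and fell by 0.39 and by 0.54 (limma adjusted p = 0.0179 and 0.00275). The Atr call with IL-2 was lost without naive replicate 1 (0.053), IL-2 replicate 1 (0.0932) or IL-2 replicate 2 (0.0963) and with arrays centred on their medians (0.0629).
Chek1 (probe set 10592201), the kinase downstream of ATR that restrains origin firing and entry into mitosis, had the largest fitted difference from naive of the 31 genes, from naive values below the filter value. It read 5.95 and 5.98 in naive, 9.53 and 9.38 in IL-2 and 9.83 and 10.14 in IL-12 cells, a log2 difference of 3.49 ± 0.13 with IL-2 and 4.02 ± 0.13 with IL-12, or 11.2-fold and 16.2-fold (limma adjusted p = 1.38e-07 and 4.69e-08). Chek2, the kinase downstream of ATM, read 6.47 and 7.01 in naive, 8.15 and 8.26 in IL-2 and 7.88 and 8.20 in IL-12 cells, 2.76-fold and 2.46-fold above naive (limma adjusted p = 0.000275 and 0.000338). Msh6, a mismatch recognition gene, was 1.23-fold higher with IL-2 and 1.37-fold higher with IL-12 (limma adjusted p = 0.0493 and 0.00557). The Msh6 call with IL-2 lay at the threshold and was lost without any one array (0.0568 to 0.314), and under 7 other settings.

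**Figure D2:**
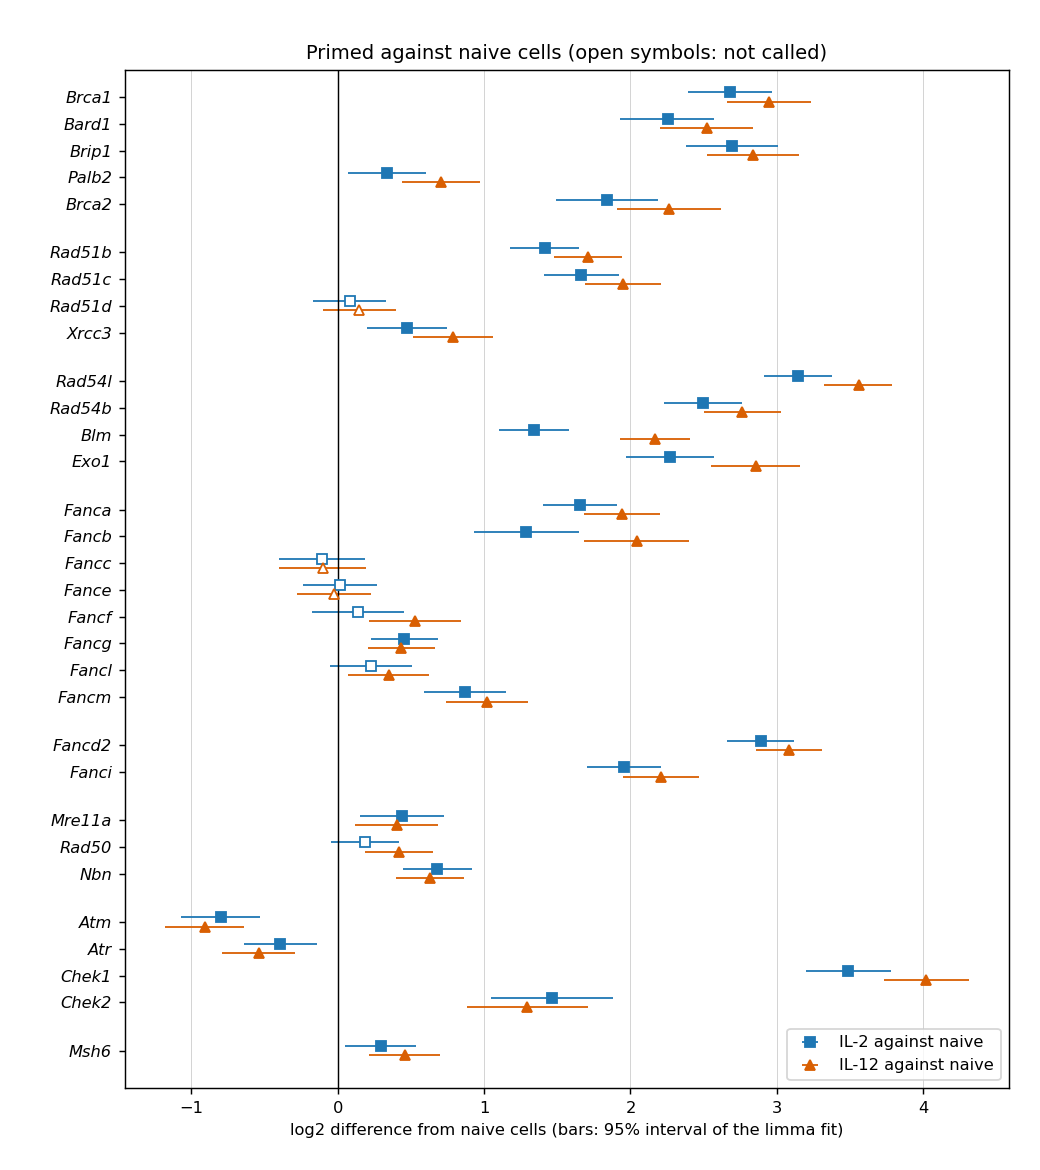
Log2 differences from naive cells (horizontal axis) of the 31 genes in IL-2 primed (squares) and IL-12 primed cells (triangles), 2 arrays per group, with 95% intervals of the limma fit; open symbols did not pass the test. Chek1 lies farthest to the right at 3.49 and 4.02, and Atm and Atr lie left of 0.

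Between the primed groups the differences were small, and those that passed the test were all higher in IL-12 cells. Blm, Exo1, Rad54l, Fancb and Chek1 rose, which is 5 of 31 genes (16.1%), where 9.82% of all tested genes rose and 11% fell. No gene of the 31 fell by limma, and at an unadjusted p under 0.05 13 were higher and 0 lower. The share of all tested genes at that looser threshold was not computed, here or for the lists below. Over all tested genes 1095 rose and 1226 fell, or 1364 and 1132 with arrays centred on the median of the tested genes (all-gene median 0.043). The median difference over the 31 genes was 0.256, against 0.0173 over all tested genes, and the range was -0.17 to 0.83. Both IL-12 arrays lay above both IL-2 arrays in 19 of 31 genes (61.3%), where 33% of all genes measured did so. The means stood in the order naive, IL-2, IL-12 in 23 of the 31 genes (74.2%) and in 29.9% of all tested genes. This order rests on comparisons with shared groups. In 28 of the 31 the IL-2 mean was already above the naive mean, so the order partly repeats the comparison with naive cells. It is no separate evidence on IL-12 against IL-2 cells.

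Blm was the firmest of the 5. Its IL-12 arrays, at 9.67 and 9.75, lay above the IL-2 arrays at 8.96 and 8.81, a log2 difference of 0.83 ± 0.11 (95% interval 0.59 to 1.07; limma adjusted p = 0.00104), and it remained called under all 16 other settings tried, with adjusted p up to 0.021. Fancb was 1.69-fold higher with IL-12 (limma adjusted p = 0.0116), its IL-12 arrays reading 8.31 and 8.73 against 7.85 and 7.68. Exo1 was higher by 0.59 on the log2 scale (limma adjusted p = 0.0157), Chek1 1.44-fold (0.0201) and Rad54l 1.33-fold (0.0231). In each of these genes the arrays of the groups did not overlap. With 1 array left out, the lone array of that group is assumed to vary like the others. The Fancb call was then lost without replicate 2 of the IL-2 (0.105) or of the IL-12 cells (0.0842), and the Exo1 call without either IL-2 array (0.112 for replicate 1, 0.0858 for replicate 2) or IL-12 replicate 2 (0.115). The Chek1 call was lost without the same 3 arrays (0.0714, 0.166 and 0.159), and the Rad54l call without any IL-2 or IL-12 array (0.0656 to 0.167). The number of genes that rose was 2 and 1 when IL-2 replicate 1 and replicate 2 were left out, 4 and 1 for the IL-12 arrays in the same order, and 10 when a naive array was left out or the primed groups were fitted alone.

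The other genes did not pass the test, and their intervals limit the difference that remains possible. Brca1 differed by 0.26 (95% interval -0.02 to 0.55), Brca2 by 0.42 (0.07 to 0.78), Fancd2 by 0.20 (-0.03 to 0.42) and Palb2 by 0.37 (0.10 to 0.63), with limma adjusted p of 0.171, 0.086, 0.203 and 0.0561. Fancf gave 0.39 (0.08 to 0.70; limma adjusted p = 0.0786). Near 0 lay Fancc, Fance, Fancg, Mre11a and Nbn, with differences from -0.05 to 0.00, and each had overlapping arrays. Chek2 had the lowest difference at -0.17 (-0.58 to 0.25), followed by Atr at -0.15 (-0.40 to 0.10) and Atm at -0.11 (-0.38 to 0.16).

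**Figure D3:**
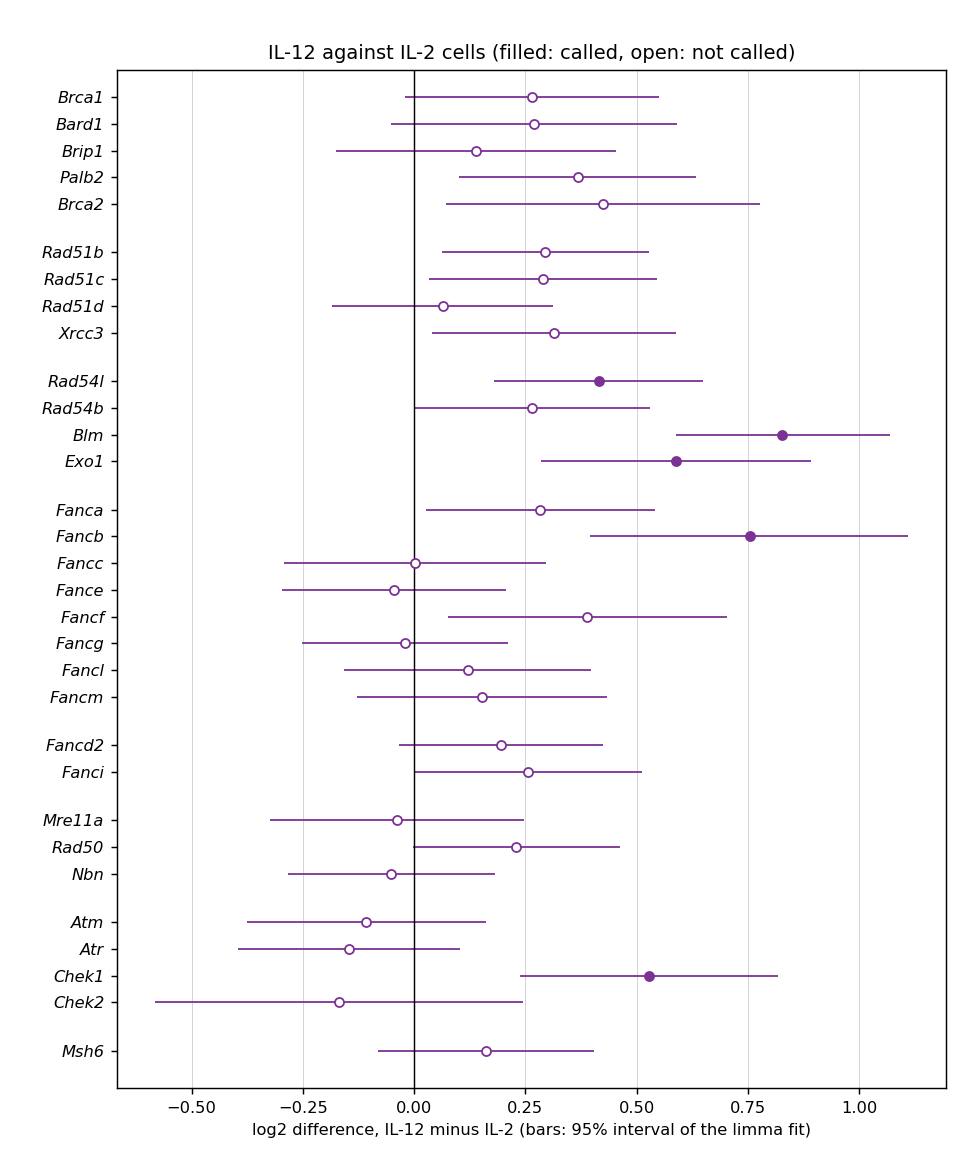
Log2 differences of IL-12 minus IL-2 primed cells (horizontal axis) for the 31 genes, 2 arrays per group, with 95% intervals of the limma fit; filled points passed the test. Blm lies farthest to the right at 0.83, and the intervals of 26 genes belong to open points.

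Other genes of recombination and the checkpoint are given beside the 25.8% and 31.2% of all tested genes that rose with IL-2 and with IL-12, without a test between lists. Of 32 measured further recombination and Fanconi genes, 16 rose and 2 fell in IL-2 against naive cells and 17 rose and 1 fell in IL-12 against naive cells, with medians of 0.36 and 0.45. Hrob, which loads the MCM8 and MCM9 helicase, rose by 2.90 with IL-2 and 3.11 with IL-12, Dna2, a nuclease for long resection, by 2.70 and 3.02, and Rad51ap1, a gene of strand pairing, by 2.68 and 2.93 (limma adjusted p from 2.84e-07 to 4.14e-06). Both naive arrays of Hrob, Dna2 and Rad51ap1 lay below the filter value, so the sizes of these rises are not exact. The falls were small, Faap100 by 0.39 and Top3a by 0.32 with IL-2 and Mcm9 by 0.34 with IL-12 (limma adjusted p = 0.0241, 0.0335 and 0.0239), and all were lost with arrays centred on their medians (0.122, 0.181 and 0.141). Between the primed groups 1 of the 32 rose and 1 fell, Zgrf1 by 0.34 and Rad52 by -0.49 (limma adjusted p = 0.0388 and 0.0479), and both calls were lost without either IL-2 array or without IL-12 replicate 2 (0.155 to 0.306), and that of Zgrf1 also without IL-12 replicate 1 (0.145).
Of 21 further checkpoint and damage signalling genes, 10 rose and 2 fell with IL-2 and 12 rose and 2 fell with IL-12. Clspn, which brings CHEK1 to ATR, rose by 2.84 and 3.03, and Wee1, a kinase that holds back mitosis, by 2.60 and 2.94. Both naive arrays of Clspn and the first naive array of Wee1 lay below the filter value, so these sizes are not exact. The genes that fell were Mdc1 and Trp53bp1, the scaffolds that gather at breaks. Mdc1 fell by 0.89 and by 0.68, and Trp53bp1 by 0.62 and by 0.66 (limma adjusted p from 0.000272 to 0.0019). H2ax, the histone that ATM marks at breaks, read 8.63 and 8.90 in naive, 11.062 and 11.005 in IL-2 and 10.59 and 10.67 in IL-12 cells, and so rose with priming while it was 1.32-fold lower with IL-12 than with IL-2 (limma adjusted p = 0.0428, lost without any IL-2 or IL-12 array at 0.132 to 0.209). Cdc25a, a phosphatase that opens the cell cycle, and Timeless, a fork protection gene, were higher with IL-12 than with IL-2 by 0.43 and 0.37 (limma adjusted p = 0.0344 and 0.0482), and both calls were lost without any IL-2 or IL-12 array (0.0621 to 0.278).

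End joining, the route that works without a sister chromatid, gave 4 rises and 3 falls among 11 genes with IL-2 and 3 of each with IL-12. Prkdc, the catalytic kinase of that route and a relative of ATM and ATR, read 9.54 and 9.22 in naive, 8.69 and 8.44 in IL-2 and 8.29 and 8.15 in IL-12 cells, and fell by 0.81 and by 1.15 (limma adjusted p = 0.00178 and 0.000154). Mad2l2, which steers breaks towards end joining, rose by 0.62 and 1.21 and was the 1 gene of this list that rose between the primed groups, by 0.59 (limma adjusted p = 0.00994; 0.096 without IL-2 replicate 1, 0.0506 without IL-12 replicate 1 and 0.0688 without IL-12 replicate 2). Of 4 measured mismatch repair genes other than Msh6, Mlh3 fell with IL-2 and 0 rose by limma (1 at an unadjusted p under 0.05), and Pms2 rose while Mlh3 and Msh3 fell with IL-12. The Mlh3 call with IL-2 (limma adjusted p = 0.0202) was lost without replicate 1 (0.0816) or replicate 2 (0.135) of the IL-2 cells, the Pms2 call (0.0402) without any naive or IL-12 array (0.0603 to 0.149) and the Msh3 call (0.00796) without IL-12 replicate 1 (0.0785). Of 19 tested p53 target genes, 9 rose and 4 fell with IL-2, 11 rose and 5 fell with IL-12, and 6 rose and 4 fell between IL-12 and IL-2 cells. Gtse1, a G2 phase regulator of p53, rose by 2.71 and 3.12, while Sesn1, a stress sensor, fell by 0.71 and by 1.83. Between the primed groups Pmaip1, which encodes the death protein NOXA, rose by 1.04 and Sesn1 fell by 1.13 (limma adjusted p = 0.000577 and 0.000351).

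DNA replication and mitosis genes are the other programmes of dividing cells set beside the repair genes. All 33 replication genes and all 28 mitosis genes measured rose in both primed groups, with medians of 1.89 and 4.13 with IL-2 and 2.37 and 4.26 with IL-12. Several genes of both lists, such as Gins1, Orc1, Hmmr and Kif2c, had both naive arrays below the filter value. The sizes of these medians are therefore not exact. Between IL-12 and IL-2 cells 15 of 33 replication genes rose and 0 fell by limma, with a median of 0.38; at an unadjusted p under 0.05 these counts were 22 and 0. Of the 28 mitosis genes 0 rose by limma (1 at an unadjusted p under 0.05, and 2 with the primed groups fitted alone), and the median was 0.03. The 1 that fell was Aspm, a spindle pole gene named after its values were seen, by 0.41 (limma adjusted p = 0.0208), a call lost without any IL-2 or IL-12 array. The repair genes, with 5 of 31 and a median of 0.26, are set beside these values without a test of the difference. The replication count was lower when any IL-2 or IL-12 array was left out and higher when a naive array was left out. The count over all tested genes moved the same way. Mcm2, a subunit of the replicative helicase, read 9.45 and 9.83 in naive, 10.78 and 10.72 in IL-2 and 11.40 and 11.51 in IL-12 cells.

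**Figure D4:**
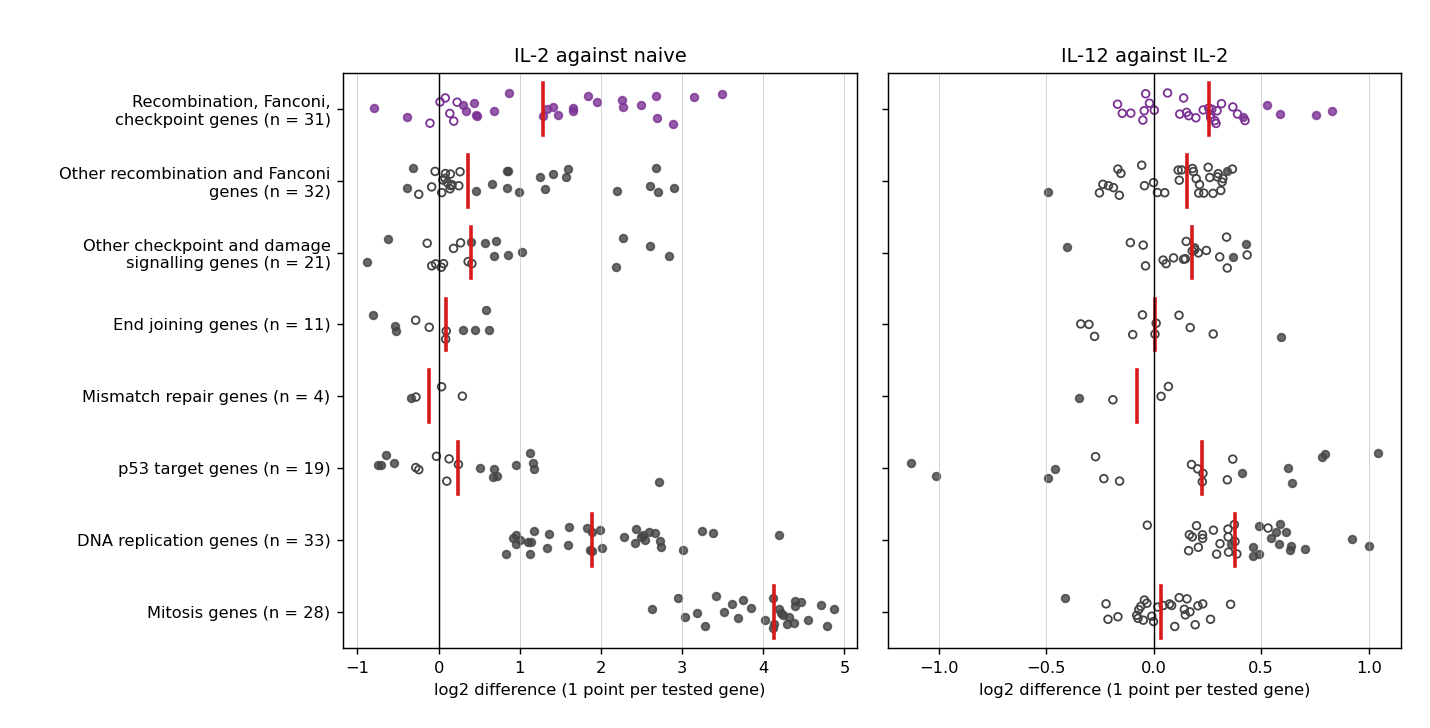
Log2 differences (horizontal axes) of single tested genes in 8 lists, for IL-2 against naive (left) and IL-12 against IL-2 (right); filled points passed the limma test, and red lines are medians. The repair genes spread from -0.80 to 3.49 on the left, between the end joining genes and the mitosis genes, with a median of 1.29.

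Markers of other cells also differed between the groups, and their part in the results above was not tested. All 13 B cell markers measured fell in both primed groups, and their mean log2 value was 8.73 to 8.79 on the naive, 6.52 to 6.59 on the IL-2 and 7.437 to 7.499 on the IL-12 arrays. The B cell receptor gene Cd79a read 9.68 and 9.87 in naive, 7.03 and 7.04 in IL-2 and 8.63 and 8.68 in IL-12 cells. Of the 13, 10 were called higher with IL-12 than with IL-2 and 0 fell by limma, also at an unadjusted p under 0.05, the same direction as the 5 repair genes. Against naive cells these markers went the opposite way from most repair genes, and any link was not tested. MHC class II presentation genes averaged 10.12 to 10.15, 8.003 to 8.125 and 8.78 to 8.96 in the same order, and between IL-12 and IL-2 cells 5 of 8 were called higher and 1 lower. Cd74, the invariant chain gene, was 4.10-fold higher with IL-12. The gene called lower was H2-Oa, named after its values were seen, which fell by 1.66 (limma adjusted p = 0.00126). Myeloid and dendritic markers averaged 7.69 to 7.91 on the naive arrays and 6.29 to 6.62 on the primed arrays, and the lysozyme gene Lyz2 read 9.31 and 9.35 in naive and 5.20 to 5.84 in primed cells. Of 9 tested myeloid markers 7 fell with IL-2, and 6 fell and 1 rose with IL-12 against naive cells, while 2 rose between IL-12 and IL-2 cells. The integrin gene Itgam, named after its values were seen, went the other way from Lyz2, reading 6.19 and 6.44 in naive, 6.55 and 6.59 in IL-2 and 7.41 and 7.63 in IL-12 cells. Natural killer markers averaged 7.27 on both naive arrays and 6.22 to 6.37 on the primed arrays. Only 3 of the 6 measured were tested. Against naive cells 2 fell and 1 rose with IL-2, and 2 fell and 0 rose with IL-12. Klrc1, named after its values were seen, went the other way from the mean of the list with IL-2. Its group means were 8.298 in naive, 9.067 in IL-2 and 8.39 in IL-12 cells. Markers of CD4 and regulatory T cells averaged 7.05 to 7.10 on the naive and 8.13 to 8.36 on the primed arrays, and the 3 that rose were Ctla4, Ikzf2 and Zbtb7b, named after their values were seen. The defining gene Cd4 read 6.57 and 6.61 in naive and 6.19 to 6.44 in primed cells and was not tested, being under the filter. Foxp3 differed from naive by 0.03 with IL-2 and -0.02 with IL-12 (limma adjusted p = 0.909 and 0.917). Of 9 CD8 T cell markers 4 were called lower with IL-12 than with IL-2, and the mean of the 9 was 11.88 to 12.03 on the naive, 11.93 to 11.99 on the IL-2 and 11.62 to 11.65 on the IL-12 arrays. Against naive cells 1 rose and 1 fell with IL-2. With IL-12 0 rose and 5 fell by limma, where 26.7% of all tested genes fell. Erythroid and platelet markers, 8 of 12 measured, averaged 6.39 to 6.61 over all arrays.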

How the data were processed

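RNA of 6 CD8+ T cell samples was measured on Affymetrix arrays. The authors deposited log2 expression values per probe set, and the submitters' processing notes name RMA; its version, settings and genome build are not given in the sources used here. RMA aligns the arrays with each other, so a shift shared by most genes would not show. Of 35556 probe sets, 21789 carry 1 gene symbol in the platform annotation, 1621 several and 12146 none; probe sets with 1 symbol gave 19938 genes, each read from its brightest probe set on average. Genes with at least 2 of 6 arrays above the 50th percentile of all values (6.83) were tested, 11147 in all. One limma fit (version 3.58.1, R 4.3.3) held all 6 arrays with a mean per group (residual degrees of freedom 3, prior 5.62). Tests were two-sided, with Benjamini-Hochberg adjustment over all tested genes. The fit was tested on simulated data. Precision is limited by 2 arrays per group. The genes and the comparison lists (210 of 233 listed genes matched) were chosen with earlier results of these data known. All members are named, and of each other repair list at most the 3 largest called rises and falls per comparison. Alternatives changed the filter, the choice of probe set, the normalization, the eBayes settings, the samples fitted and the replicate block, and left out each array; centring on the median of the tested genes was added after seeing the data. Promoter sequences are from RefSeq, build GRCm38.p6.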

Additional observations from a re-analysis of the deposited data

How the results depend on the processing

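Over 31 genes, 3 comparisons and 16 other settings, 1376 of 1449 values stayed on the same side of the threshold, 54 lost a call and 19 gained one, and no called value changed sign; 27 values of 8 genes, between -0.096 and 0.090 and called in neither setting, did. With the filter at the 75th percentile 14 genes rose and 1 fell with IL-2 and 16 rose and 1 fell with IL-12 against naive cells. That filter left 6374 genes to test, and not all of the 31 were among them. Of these 6374, 2097 rose and 1378 fell with IL-2, and 2457 rose and 1890 fell with IL-12. No gene of the 31 that was still tested lost a call under it. With each array centred on its median 1 gene fell with IL-2. With the compared groups fitted alone 10 genes were higher with IL-12 than with IL-2, as were 1695 of all 11147 tested genes. Leaving out 1 array at a time gave fewer than the 23 rises and at most the 2 falls of the main fit with IL-2 against naive cells. With IL-12 against naive cells it gave at most the 26 rises of the main fit. Between IL-12 and IL-2 cells it gave fewer or more than the 5 rises of the main fit, by the array left out. The counts over all tested genes changed too. Whether same-numbered arrays share a mouse or culture is not in the labels, and 2 arrays per group cannot decide it. Deviations of same-numbered arrays correlated at 0.015 (naive and IL-2), -0.022 (naive and IL-12) and 0.153 (IL-2 and IL-12) over 11147 genes. The fit with the replicate number as a block gave 21, 26 and 6 rises in the 3 comparisons. The cause of these changes was not tested. With 2 arrays per group, the intervals given beside the values limit what could be detected.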
